A study of Mus musculus with 15 samples.

Results

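The mRNAs of the Rab and Arl vesicle GTPases were examined for crosslink sites of tristetraprolin (TTP), a zinc-finger protein that binds AU-rich elements in 3′UTRs and recruits mRNA decay factors. Members were the protein-coding genes whose GENCODE M21 name is Rab or Arl followed directly by a digit, without the names that begin with Rab3gap, Rab11fip or Arl6ip. This gave 84 of 21951 protein-coding genes. Among them, 78 encode GTPases and 6 carry a GTPase's name without being one (Rab3ip, Rab3il1, Arl2bp, Arl14ep, Arl14epl and Rab5if). An Arl gene that also fits the pattern was not analysed here.

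The data came from individual-nucleotide resolution crosslinking and immunoprecipitation (iCLIP), in which UV light links a protein to the RNA it touches and each unique cDNA marks 1 crosslinked nucleotide. All groups were bone marrow-derived macrophages of TTP-deficient C57BL/6 mice, immortalised with MYC and mutant RAS oncogenes, that carried a tet-inducible vector for either GFP-TTP or GFP-TTP-AA, a mutant with alanine in place of the serines that the kinase MK2 phosphorylates. Every group received doxycycline for 6 h and either no lipopolysaccharide (LPS, non-stimulated, called 0 h) or LPS for 1 h or 4 h. The TTP lists pooled 2 (0 h), 4 (1 h) and 2 (4 h) libraries, and the TTP-AA lists pooled 2, 3 and 2. Each protein was studied in a single transduced line, at the level that the inducible promoter gave, and RNA abundance was not measured in these files. Because each list is a sum over its libraries, no value had a replicate error and all intervals cover counting error only.

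Rab proteins are small GTPases that act as switches on membranes. In the GTP-bound form they recruit tethers, motors and fusion factors to a given organelle, and exchange factors, GTPase-activating proteins and GDP dissociation inhibitors drive the cycle between membrane and cytosol. Arl proteins are relatives of the Arf GTPases with roles at the Golgi, on lysosomes and in cilia. In macrophages these proteins steer phagosome maturation, receptor recycling and cytokine secretion.

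The places with most cDNAs in the 3′UTRs of 10 members are shown first because the 1 h results turn on them. Rab8b, with 56 TTP-AA cDNAs at 1 h, had no window extracted and is not among the 10. Rab5if, with 9 TTP-AA and 6 TTP cDNAs, is among them. In the leading stretch of Rab8b, 0 of 12 sites were near AUUUA. Each window spans 29 nt around the crosslinked nucleotide with most 1 h cDNAs within 14 nt on either side, is given 5′ to 3′ as RNA of the GENCODE M21 transcript in GRCm38 coordinates, and lies in 1 exon of the 3′UTR. Capitals mark AUUUA, the core pentamer of AU-rich elements. In 4 of the 10 windows the pentamer was present:
Rab1b, chr19:5099357-5099385, minus strand: ccccuccaguguguAUUUAagucccuggg
Rab4b, chr7:27168472-27168500, minus strand: ugcaagucuguuAUUUAuuaccuggaggc
Rab21, chr10:115290437-115290465, minus strand: uaaaucagaucuuuAUUUAauaacuuaua
Arl8b, chr6:108822978-108823006, plus strand: cugaguaccguuuuaAUUUAuagacugcc

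The other 6 windows held no AUUUA, although 5 of these 6 genes had it elsewhere in the 3′UTR:
Rab14, chr2:35181540-35181568, minus strand: guauauuauuuuaaugaagaaaauaaauu
Rab5c, chr11:100715326-100715354, minus strand: aacuuuuucuguauuuuguauuguauguu
Rab7, chr6:87999816-87999844, minus strand: aauauaugcaaccaauuaaaauguauaaa
Rab1a, chr11:20225416-20225444, plus strand: acugaagauauguuuaauaaauauuguac
Rab10, chr12:3249644-3249672, minus strand: uucaauccaccuauuuuauuuguucuuuc
Rab5if, chr2:156873491-156873519, plus strand: acaagcagccaucuaauaagucuccauug

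The window of Rab1b, a GTPase of transport from the endoplasmic reticulum to the Golgi, held 42 TTP-AA and 13 TTP cDNAs at 1 h, the most of any member. The window of Rab4b, which acts in rapid endosomal recycling, held 3 TTP and 23 TTP-AA cDNAs, and its AUUUA stood inside the longer UAUUUAU. A and U together made up between 13 (Rab1b) and 26 (Rab14) of the 29 nt in the 10 windows. The Rab14 window held 0 TTP and 20 TTP-AA cDNAs. Over the 31 members for which a window was extracted, 14 windows held AUUUA and the median A or U content was 21 of 29 nt. Rab8b and Rab18 had 1 h sites but no extracted window. Each of the 31 windows was found in 1 gene only among the protein-coding transcripts searched. These were the transcript with the longest 3′UTR of each gene and those holding a 3′UTR site. Other transcripts, pseudogenes and the rest of the genome were not searched.

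At 1 h, TTP-AA sites lay in the 3′UTRs of more Rab and Arl genes than TTP sites. A 3′UTR site was present in 30 of 84 members (35.7%) in the TTP-AA 1 h list and in 11 of 84 (13.1%) in the TTP 1 h list. Among all protein-coding genes with an annotated 3′UTR the corresponding shares were 21.2% and 6.16%. At 0 h, 6 members (7.14%) had a TTP site and 4 (4.76%) had a TTP-AA site, against 3.51% and 4.25% of all genes. At 4 h, 0 of 84 members had a 3′UTR site in either list, where 0.604% (TTP) and 0.942% (TTP-AA) of all genes had one. No site in any region or list fell in 41 of the 84 members, and the corresponding share of all genes was not computed.

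The largest number of members was found in the largest list. At 0 h the TTP and TTP-AA lists contained 4369 and 6008 3′UTR cDNAs, of which members had 26 and 33. At 1 h they contained 9558 and 93510, with 53 and 651 in members. At 4 h they contained 906 and 1000, with 0 in members. The member share of 3′UTR cDNAs was 0.595% (Wilson 95% interval 0.406 to 0.871) for TTP and 0.549% (0.391 to 0.770) for TTP-AA at 0 h. At 1 h it was 0.555% (0.424 to 0.725) for TTP and 0.696% (0.645 to 0.752) for TTP-AA. These 4 intervals overlapped. With the 0 counts at 4 h set to the limit of 3, the shares would be 0.331% for TTP and 0.3% for TTP-AA. The Wilson upper bounds at 4 h were 0.422% and 0.383%, and the first of these overlapped both 0 h intervals. Neither limit covers cDNAs at sites that the false-discovery threshold left out of a list. The header of each 1 h list carries the mark regionAsOne, which the 0 h and 4 h headers lack. The study's methods do not explain this mark. Any difference in processing that it stands for cannot be told apart from time.

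**Figure D1:**
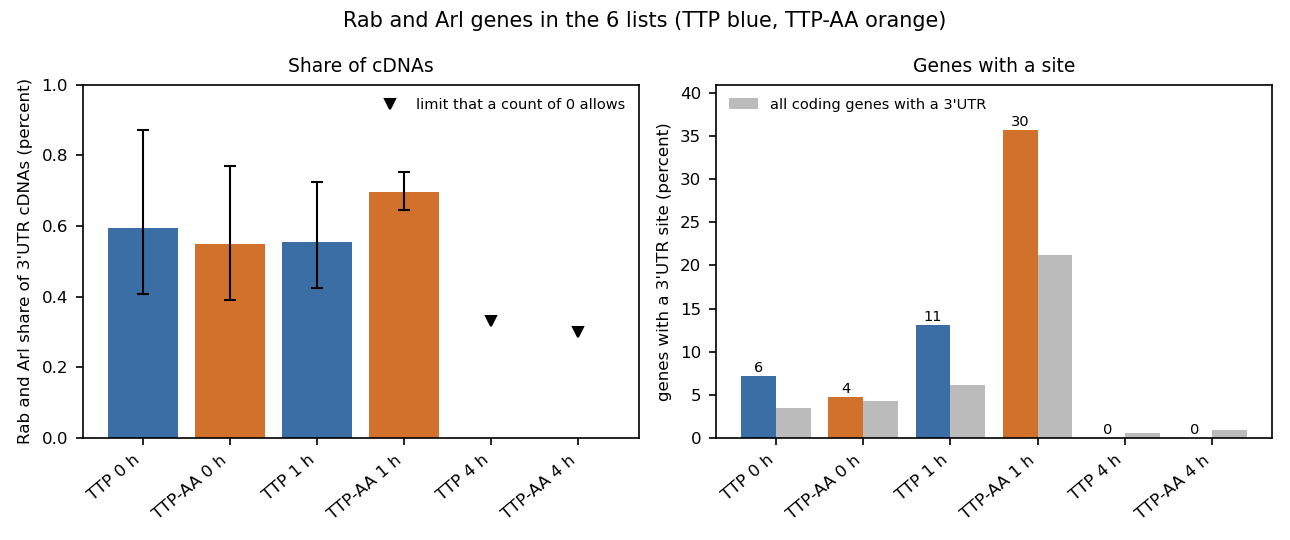
Left, percent of the 3′UTR cDNAs of each of the 6 pooled lists that fell in Rab and Arl genes, with Wilson 95% intervals. Triangles mark the limit of 3 counts set for a count of 0. Right, percent of genes with at least 1 3′UTR site, with numbers of Rab and Arl genes above bars and all coding genes in grey. The share of cDNAs ran from 0.549% to 0.696% at 0 h and 1 h while the number of genes ran from 4 to 30.

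Crosslinked cDNAs were more frequent in 3′UTRs than in other parts of the member genes. Of the 690 sense-strand cDNAs of members in the TTP-AA 1 h list, 94.3% (92.4 to 95.8) were in 3′UTRs, and over all coding genes the share was 85.6%. In the TTP 1 h list, 53 of 72 member cDNAs (73.6%, 62.4 to 82.4) were in 3′UTRs, against 37.4% over all coding genes. All 33 member cDNAs of the TTP-AA 0 h list and 26 of 37 in the TTP 0 h list were in 3′UTRs, against 55.4% and 44.9% over all coding genes. At 4 h the few member cDNAs lay elsewhere, with 4 in the 5′UTR and 9 in introns for TTP and 4 in introns for TTP-AA. Over all coding genes, 79.3% and 76.8% of the cDNAs of these 2 lists were in introns and 13.9% and 18.9% in 3′UTRs.

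Outside 3′UTRs the numbers were small. Rab1a held 12 cDNAs in its coding sequence in the TTP-AA 1 h list, Rab14 held 3 there and Arl14ep held 2. In 5′UTRs, Rab23, a regulator of Hedgehog signalling in cilia, had 4 cDNAs in the TTP 4 h list. Rab1a had 2 TTP and 1 TTP-AA cDNA in its 5′UTR at 1 h, and Arl5a, a GTPase of the trans-Golgi, had 2 TTP-AA cDNAs. In introns, Rab10 had 8 TTP-AA cDNAs at 1 h. Rab5a, which drives early endosome fusion, had 3 intronic TTP cDNAs at 1 h and 3 at 4 h. Arl15 had 3 intronic cDNAs in the TTP-AA 1 h list, 2 in the TTP 4 h list and 2 in the TTP-AA 4 h list. None of these numbers exceeded 12, and only Rab1a, Rab10, Rab23, Rab40c and Rab6a had more than 3 cDNAs outside the 3′UTR in a single list and region.

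Of the role groups, early and recycling endosomes had the most TTP-AA cDNAs at 1 h, 74 of them in Rab14. Its 14 genes had 250 TTP-AA and 14 TTP 3′UTR cDNAs, which was 38.4% of the member cDNAs of the TTP-AA 1 h list and 8.08 TTP-AA cDNAs per kb of annotated 3′UTR. Sites were found in 10 of the 14 genes. The 11 genes of late endosomes and lysosomes had 114 TTP-AA and 8 TTP cDNAs, at 6.88 TTP-AA cDNAs per kb, in 5 genes. The 15 Golgi and endoplasmic reticulum genes had 178 and 21 cDNAs, at 3.82 per kb, in 9 genes. The 17 genes of secretory vesicles and the plasma membrane had 91 and 2 cDNAs, at 1.95 per kb, in 3 genes. The 7 genes of cilia and tubulin had 0 TTP-AA and 2 TTP cDNAs, and 14 genes in none of these groups had 6 and 0. These groups were sorted by known function with earlier results in view and were not tested against each other.

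**Figure D2:**
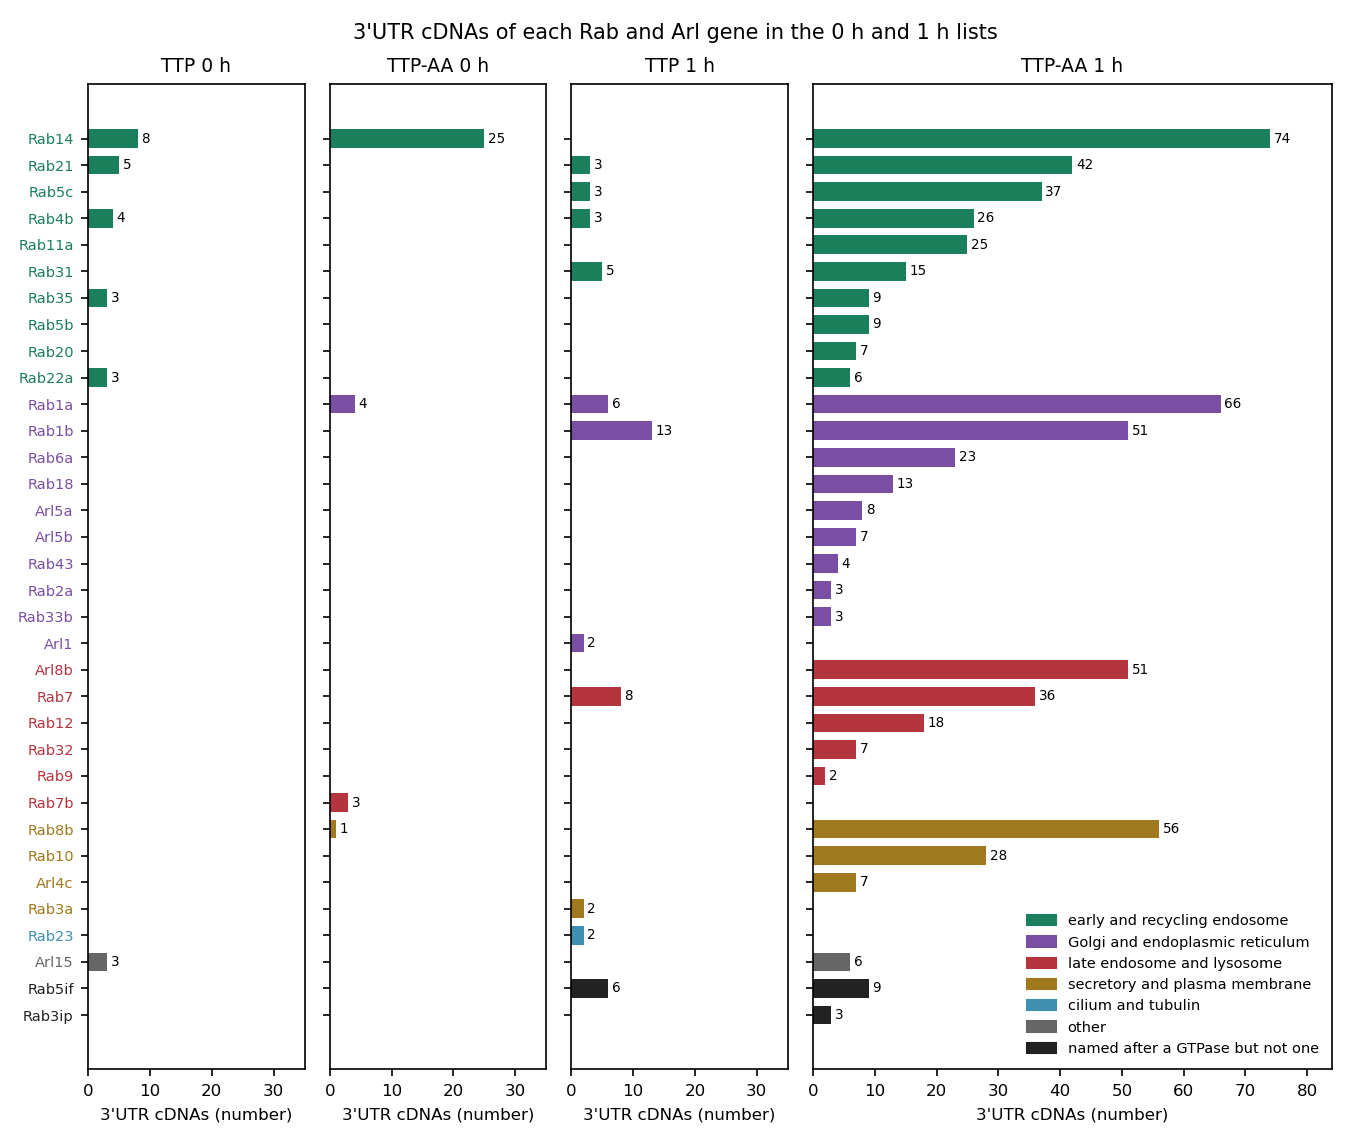
Number of 3′UTR cDNAs of every Rab and Arl gene with a 3′UTR site, in the 0 h and 1 h lists, with genes coloured and ordered by role and the number printed beside each bar. In the TTP-AA 1 h list Rab14 had the most (74) and in the TTP 1 h list Rab1b (13).

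The GTPases of early and recycling endosomes were led by Rab14, which moves cargo between endosomes, the Golgi and phagosomes. Without LPS its 3′UTR held 8 cDNAs for TTP and 25 for TTP-AA. After 1 h of LPS it held 0 for TTP and 74 for TTP-AA, and after 4 h none for either. It was the 1 member bound by both proteins at 0 h, and the 1 member with over 5 cDNAs in a TTP-AA list at 0 h. Its share of 3′UTR cDNAs was 0.183% (0.0928 to 0.361) for TTP and 0.416% (0.282 to 0.614) for TTP-AA at 0 h, a ratio of cDNAs of 3.12 (exact interval 1.37 to 8.02). At 1 h the TTP-AA share was 0.0791% (0.0630 to 0.0993), and 3 counts, the limit set for the 0 of TTP, would be 0.0314%. With TTP set to 3 counts, Rab14 had 24.7-fold more TTP-AA than TTP cDNAs at 1 h. After division by the 3′UTR cDNAs of each list this was 2.52-fold. The limit covers counting error in the list, not TTP cDNAs at sites that the false-discovery threshold left out.

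The 2 main stretches of TTP-AA sites in Rab14 at 1 h also held its 0 h sites, where a stretch is a run of 1 h sites at most 15 nt apart. At 1 h, 52 of the 74 TTP-AA cDNAs (70.3%) lay between 610 and 731 nt after the stop codon, and 14 (18.9%) lay between 1998 and 2029 nt, where the last site was 36 nt before the annotated end of the 3′UTR. At 0 h, the first of these stretches, widened by 15 nt, held 13 of 25 TTP-AA and 7 of 8 TTP cDNAs, and the second held 12 and 1. A further stretch between 1715 and 1731 nt had 5 TTP-AA cDNAs at 1 h and 0 at 0 h. None of the 56 TTP-AA 1 h sites of Rab14 had AUUUA within 20 nt, although the 3′UTR contains 5 copies and 8.96% of its positions lie that close to one.

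Rab21, an endosomal GTPase of integrin traffic, had 5 TTP cDNAs at 0 h, 3 TTP cDNAs at 1 h and 42 TTP-AA cDNAs at 1 h. The TTP and TTP-AA sites of Rab21 at 1 h did not share a stretch. The leading stretch, 296 to 333 nt after the stop codon, held 17 TTP-AA and 0 TTP cDNAs, and all 12 of its sites were near AUUUA. Rab5c, a GTPase of early endosome fusion, had 37 TTP-AA and 3 TTP cDNAs after 1 h of LPS, and its stretch from 684 to 730 nt held all 3 TTP and 17 TTP-AA cDNAs. Rab4b had 4 TTP cDNAs at 0 h, then 3 TTP and 26 TTP-AA cDNAs after 1 h. All of its 1 h cDNAs fell in a single stretch of 48 nt near the end of a 3′UTR of 396 nt, so that Rab4b had the highest density of all members, 73.2 cDNAs per kb over both 1 h lists. These sites also lie within the bounds of the read-through gene Gm21983 on the same strand.

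Among the remaining genes of this group, Rab31 was the only one with TTP cDNAs at 1 h. Rab31, which acts between the trans-Golgi and endosomes, had 15 TTP-AA and 5 TTP cDNAs, 3.00 times as many (1.04 to 10.6). Rab11a, a GTPase of the recycling endosome, had 0 and 25. Rab35, Rab5b, Rab20 and Rab22a had 9, 9, 7 and 6 TTP-AA cDNAs at 1 h and 0 TTP cDNAs, and Rab35 and Rab22a also had 3 TTP cDNAs each at 0 h. All 5 TTP-AA sites of Rab20 and all 6 of Rab22a lay within 20 nt of AUUUA.

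Rab1a and Rab1b, close paralogues that govern vesicle transport from the endoplasmic reticulum to the Golgi, held most of the Golgi group's cDNAs. Rab1a had 4 TTP-AA cDNAs at 0 h and, after LPS, 66 TTP-AA and 6 TTP cDNAs, spread over 9 stretches. Rab1b had none at 0 h. Its 1 h cDNAs numbered 51 for TTP-AA and 13 for TTP, of which 44 and 13 lay in 1 stretch of 41 nt. The ratio of TTP-AA to TTP cDNAs was 11 (4.79 to 31.1) for Rab1a and 3.92 (2.10 to 7.86) for Rab1b. Near AUUUA were 18 of 25 TTP-AA sites of Rab1b (72.0%) and 9 of 58 of Rab1a (15.5%), with 3.15% and 3.68% of the positions of these 3′UTRs that close to the pentamer. The paralogues thus differed in how concentrated their sites were and how many were near the motif, with no test of that difference.

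Of the other 13 genes of the Golgi and endoplasmic reticulum group, 7 had TTP-AA but no TTP cDNAs in their 3′UTR at 1 h. Rab6a, which acts in retrograde Golgi transport, had 23 TTP-AA cDNAs, Rab18, a GTPase of lipid droplets and the endoplasmic reticulum, had 13, and Arl5a and Arl5b had 8 and 7. Rab43 had 4, Rab2a 3 and Rab33b 3. Arl1, which recruits golgins to the trans-Golgi, had 2 TTP cDNAs and 0 TTP-AA cDNAs at 1 h. A count of 0 was given a limit of 3 cDNAs, and cDNAs at sites below the false-discovery threshold's reach are not listed. The absence of TTP cDNAs from genes with few TTP-AA cDNAs is therefore within what these lists can miss.

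On late endosomes and lysosomes, Arl8b and Rab7 had the most cDNAs. Arl8b, which links lysosomes to kinesin, had 51 TTP-AA and 0 TTP cDNAs at 1 h, in 10 stretches. With TTP set to 3 counts, Arl8b had 17.0-fold more for TTP-AA, and 1.74-fold after division by the 3′UTR cDNAs of each list. Rab7, which directs fusion of late endosomes and phagosomes with lysosomes, had 36 TTP-AA and 8 TTP cDNAs, 4.50 times as many (2.06 to 11.2), and 1 of its 33 TTP-AA sites (3.03%) was near AUUUA. Rab12, Rab32 and Rab9 had 18, 7 and 2 TTP-AA cDNAs and no TTP cDNAs. Rab7b, a relative of Rab7 at late endosomes, had 3 cDNAs in the TTP-AA 0 h list and none in any other list.

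Among secretory and plasma membrane GTPases, Rab8b and Rab10 carried nearly all cDNAs. Rab8b, which acts in transport to the cell surface, had 1 TTP-AA cDNA at 0 h and then 56 TTP-AA and 0 TTP cDNAs at 1 h. With TTP set to 3 counts, Rab8b had 18.7-fold more for TTP-AA, and 1.91-fold after division by the 3′UTR cDNAs of each list. Its sites were spread over 11 stretches of a 3′UTR of 4055 nt. Rab10, which delivers receptors such as TLR4 to the macrophage surface, had 28 TTP-AA and 0 TTP cDNAs, of which 12 lay between 117 and 154 nt after the stop codon. Arl4c had 7 TTP-AA cDNAs, and Rab3a, a GTPase of regulated exocytosis, had 2 TTP cDNAs and no TTP-AA cDNAs. The 3 members with the longest 3′UTRs and no cDNA there at 1 h were Rab30, Rab3c and Rab27b. Their annotated 3′UTRs cover 8596, 7918 and 6057 nt, and the longest single 3′UTR of each contains 21, 14 and 14 copies of AUUUA.

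The genes that carry a GTPase's name without being one had lower numbers. Rab5if had 9 TTP-AA and 6 TTP cDNAs at 1 h, and its 3′UTR of 479 nt has no AUUUA. Rab3ip, an exchange factor for Rab8, had 3 TTP-AA cDNAs, all near AUUUA. Arl15, in none of the role groups, had 3 TTP cDNAs at 0 h and 6 TTP-AA cDNAs at 1 h. Rab23 had 2 TTP cDNAs at 1 h.

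Per kb of annotated 3′UTR and over both 1 h lists, Rab4b was followed by Rab1b with 49.5, Rab5c with 38.5, Rab1a with 35.8 and Rab14 with 33.2 cDNAs. In the TTP-AA 1 h list the 5 members with most cDNAs held 45.8% and the 10 with most held 71.7% of the members' 651. Most sites rested on a single cDNA, 84.7% of the 537 member sites in that list, against 77.3% of all 3′UTR sites.

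**Figure D3:**
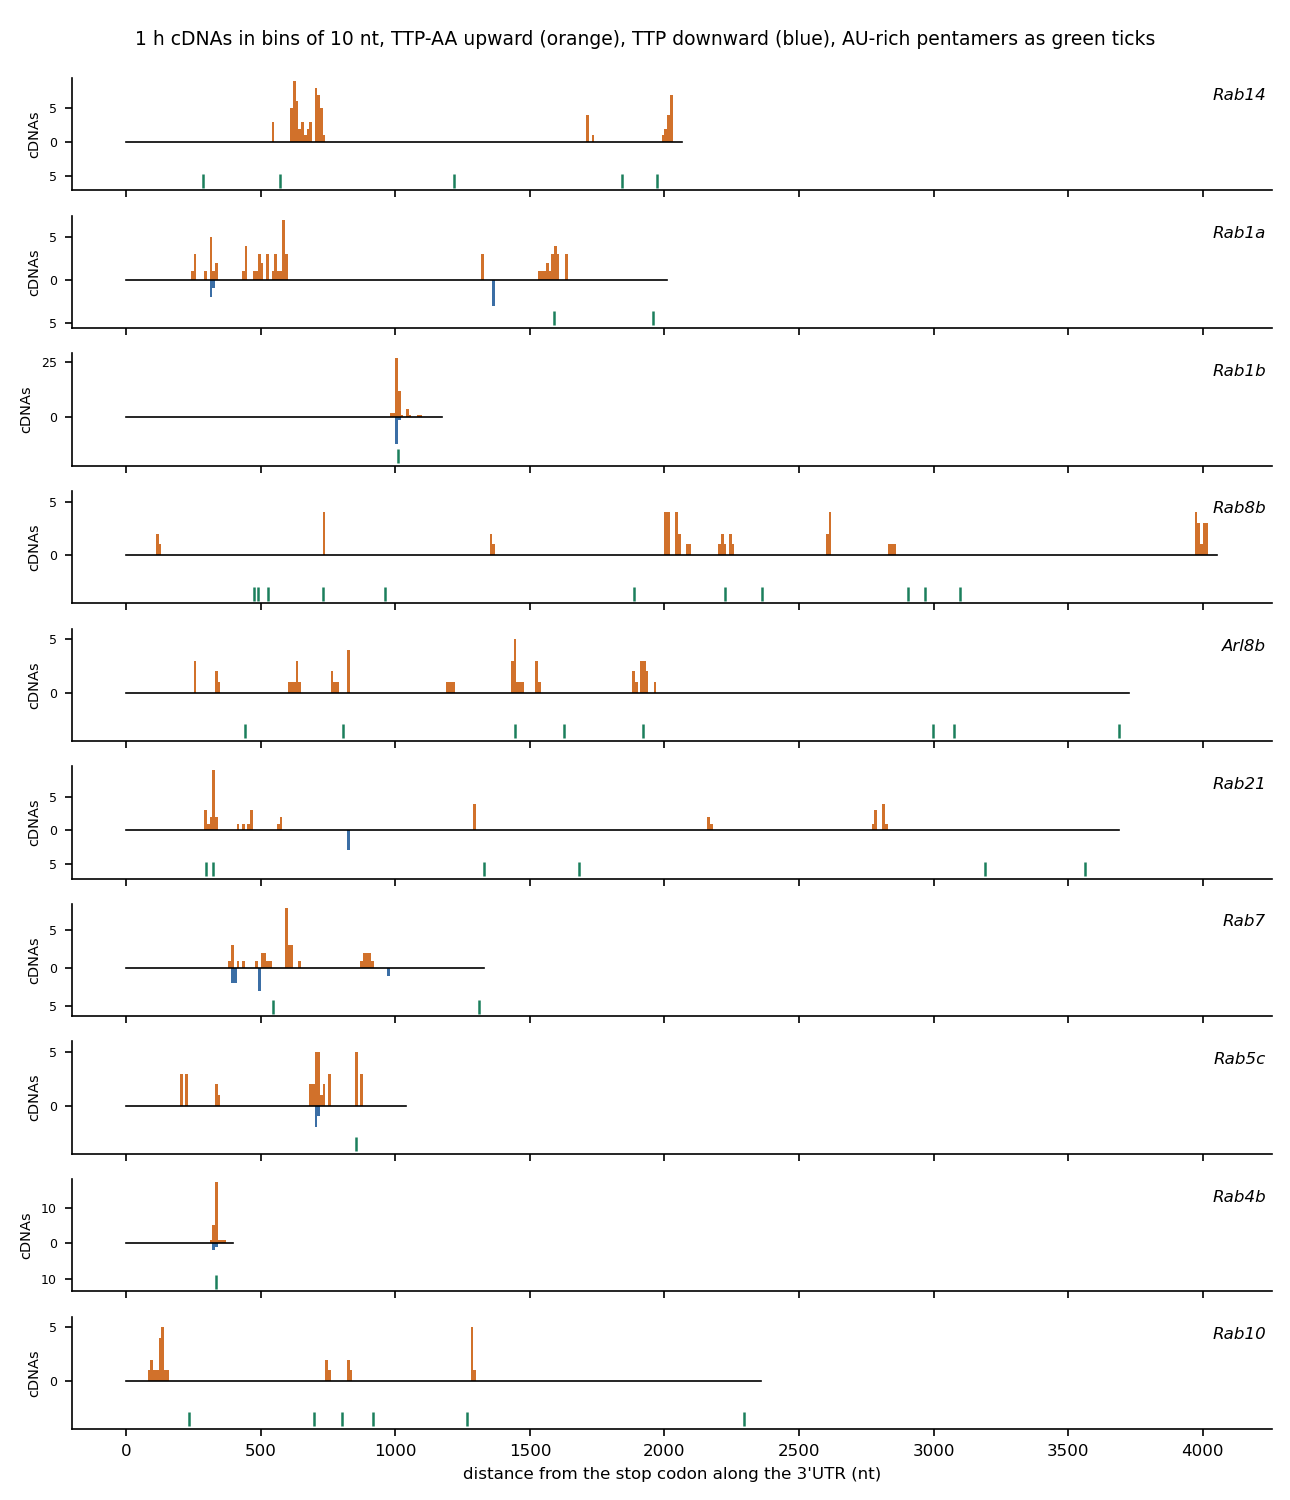
3′UTR cDNAs at 1 h of the 10 Rab and Arl genes with most cDNAs, in bins of 10 nt from the stop codon (horizontal axis, nt), TTP-AA upward and TTP downward, with the annotated 3′UTR as a line and each AUUUA pentamer as a green tick. Rab1b and Rab4b have a single dominant stretch at a pentamer, whereas Rab1a, Rab8b and Arl8b have 9, 11 and 10 stretches.

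At 1 h, the members had 12.3 times as many TTP-AA as TTP 3′UTR cDNAs (9.28 to 16.6), and all genes together had 9.78 times as many (9.58 to 9.99). At 0 h the corresponding ratios were 1.27 (0.736 to 2.21) and 1.38 (1.32 to 1.43). By role, the 1 h ratio was 17.9 (10.4 to 33.1) for early and recycling endosomes, 14.2 (6.99 to 33.8) for late endosomes and lysosomes and 8.48 (5.38 to 14) for the Golgi and endoplasmic reticulum. It was 45.5 (12.2 to 381) for the secretory group, on 2 TTP cDNAs. The intervals of these groups overlapped.

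To ask which genes departed from the list-wide ratio, each gene with at least 10 3′UTR cDNAs over both 1 h lists was set against the rest of the 3′UTR cDNAs of both lists (Fisher exact test, two-sided, Benjamini-Hochberg adjustment over 2065 genes). The test compares 2 pooled lists, not conditions. Of the 84 members, 16 passed the filter, and it admits mainly genes with many TTP-AA cDNAs. A higher share in TTP-AA was called for 1 of the 16, Rab14, where 1.99% of all tested genes were called in that direction. A higher share in TTP was called for 1, Rab5if, against 4.41% of all tested genes.

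Rab14, with 0 TTP and 74 TTP-AA cDNAs, had an adjusted p of 0.0331 (Fisher exact test between pooled lists, Benjamini-Hochberg). Rab5if, with 6 TTP and 9 TTP-AA cDNAs, had an odds ratio of TTP-AA over TTP of 0.153 and an adjusted p of 0.0298 in the same exact test. Its share of 3′UTR cDNAs was 0.0628% (0.0288 to 0.137) for TTP and 0.00962% (0.00506 to 0.0183) for TTP-AA, although in cDNAs the TTP-AA list held 1.5 times as many (0.477 to 5.12). Neither member kept an adjusted p below 0.05 when each site was counted once, with 0.0811 for Rab14 (0 TTP and 56 TTP-AA sites) and 0.0857 for Rab5if (odds ratio 0.177) in that exact test.

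The remaining 14 tested members did not pass. Among all tested genes with 0 TTP cDNAs, the smallest TTP-AA count that was called was 66. Of the members with 0 TTP cDNAs, only Rab14 had that many. For the others, such as Rab8b and Arl8b, the test could not have called TTP-AA at these counts, and no conclusion follows from their not passing. The exact test gave adjusted p-values of 0.0904 for Rab1b (odds ratio 0.401), 0.101 for Rab8b, 0.133 for Arl8b, 0.312 for Rab7 (odds ratio 0.460) and 0.391 for Rab10. For Rab21, Rab1a, Rab5c and Rab4b the odds ratios were 1.43, 1.12, 1.26 and 0.886, with adjusted p-values of 0.850, 1.00, 1.00 and 0.817 in the exact test. No TTP cDNA was found in 8 of the 16 tested members (50%), and in 55.2% of all tested genes. The share in TTP-AA was the higher one in 11 of 16 (68.8%), and in 68.8% of all tested genes. With TTP or TTP-AA counts below 3 set to 3, the median log2 ratio of TTP-AA to TTP cDNAs was 3.09 over the 16 members and 2.58 over all tested genes, whereas with a pseudocount of 0.5 it was 4.18 and 4.52.

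The direction for some members depended on the reference. With all cDNAs of a list in any region as the reference, the same exact test called 14 of the 16 members in favour of TTP-AA and 0 in favour of TTP, where 84.9% and 0.436% of all tested genes were called. Under that reference the odds ratios of Rab1b, Rab7, Rab4b and Rab31 moved from below to above 1, to 2.23, 2.56, 4.93 and 1.71. That of Rab5if became 0.854 and was no longer called.

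**Figure D4:**
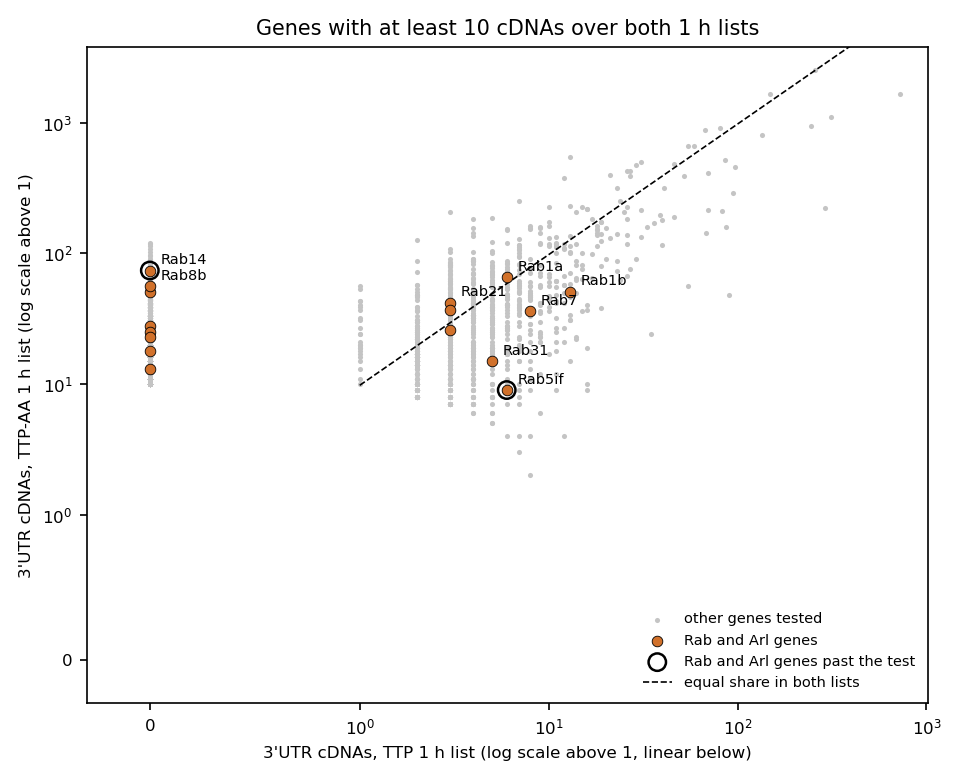
3′UTR cDNAs of each of the 2065 tested genes in the TTP 1 h list (horizontal) and the TTP-AA 1 h list (vertical), both on log scales that turn linear below 1, with the 16 tested Rab and Arl genes in orange and the dashed line at equal shares of both lists. Rab14 (0 and 74) lies above the line and Rab5if (6 and 9) below it, and they are the 2 circled genes past the test.

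The pentamer AUUUA, counted on the sense strand of the spliced transcript and wholly within 20 nt of a site, was near 144 of 537 TTP-AA 1 h member sites, 26.8% (23.2 to 30.7). Sites of all other genes in that list had it in 34.6%. In the TTP 1 h list it was near 10 of 43 member sites, 23.3%, and near 37.8% of other sites. At 0 h it was near 8 of 23 TTP member sites (34.8%, other genes 45.8%) and near 1 of 28 TTP-AA member sites (3.57%, other genes 33.9%), of which 21 were in Rab14. By exhaustive count, 6.46% of all positions in the 3′UTRs of the 84 members and 6.54% of those of all genes lay as close to AUUUA. At 20 nt the 4 shares of member sites were all lower than those of other genes. The intervals take each site as independent, although neighbouring sites of a stretch often share the same pentamer. They are therefore too narrow to decide whether these shares differ. Within 50 nt the member shares were also lower at 1 h, with 23.3% against 51.1% for TTP and 43.6% against 51.2% for TTP-AA. At 0 h the shares within 50 nt were 56.5% against 57.9% for TTP and 50% (32.6 to 67.4) against 47.3% for TTP-AA. Without Rab14, 29.9% of 481 TTP-AA 1 h member sites were within 20 nt of AUUUA (26 to 34.2), against 34.6% for other genes.

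AUUUA occurs in the longest 3′UTR of 76.2% of members and of 65.2% of all genes, and UAUUUAU, which contains it, in 31.0% and 27.6%. UAUUUAU was near 11.7% of TTP-AA 1 h member sites and 16.0% of the sites of other genes, against 0.869% and 0.982% of positions. Of the 30 members with a TTP-AA 1 h site, 23 had at least 1 such site near AUUUA. Of the 4438 other genes with a TTP-AA 1 h site, 2533 did. Among the 24 members with 5 or more TTP-AA sites, 19 had a larger percentage of sites near AUUUA than of 3′UTR positions, 4 had a smaller one (Arl5a, Rab14, Rab32 and Rab7), and Rab5if has no AUUUA. This comparison was not made for other genes.

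**Figure D5:**
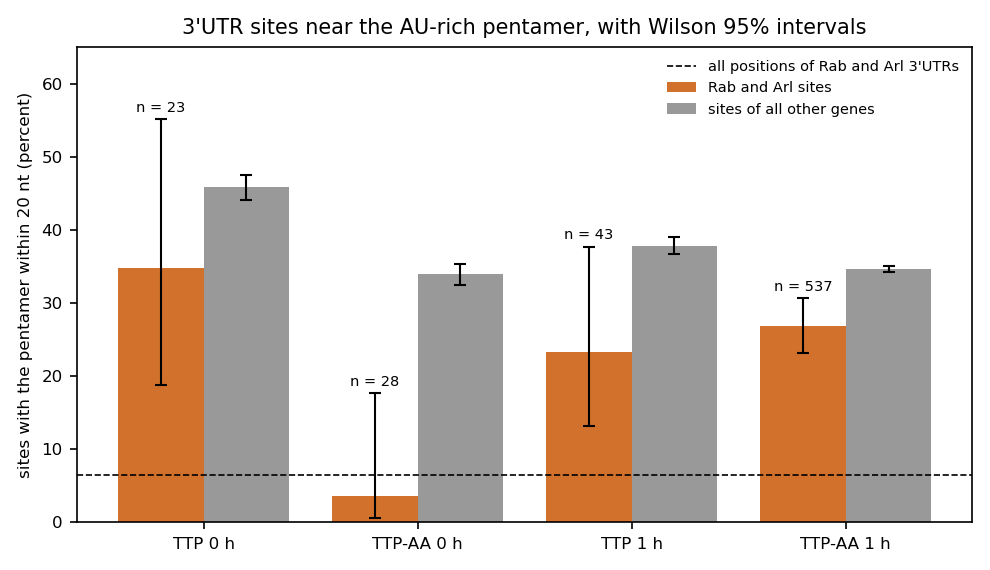
Percent of 3′UTR sites with the AU-rich pentamer wholly within 20 nt, for Rab and Arl sites (orange, number of sites above) and the sites of all other genes (grey) in the 0 h and 1 h lists, with Wilson 95% intervals and a dashed line at the 6.46% of all Rab and Arl 3′UTR positions. Rab and Arl sites reached 34.8% at most and 3.57% in the TTP-AA 0 h list.

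Members with a TTP-AA 1 h site had longer 3′UTRs. The median longest 3′UTR was 2038 nt in the 30 members with a site and 976 nt in the other 54, with a median of 3.50 and 1.00 copies of AUUUA. Over all genes, the medians were 1522 nt for those with a site and 831 nt for those without. Of the 537 TTP-AA 1 h member sites, 68 lay within 100 nt of the 3′UTR end, 12.7% (10.1 to 15.7), against 18.3% for other genes, where this stretch made up 4.11% and 4.98% of the 3′UTR length.

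TTP and TTP-AA were found at shared places in part. Of the 11 members with a TTP 1 h site, 8 (72.7%) also had a TTP-AA 1 h site, which was 26.7% of the 30 TTP-AA members. Over all genes these shares were 86.3% and 25.0%. The exceptions were Arl1, Rab23 and Rab3a, with 2 TTP cDNAs each. At 1 h, 27 of the 43 TTP member sites had a TTP-AA site at most 15 nt away, 62.8% (47.9 to 75.6), against 76.7% for other genes. In the other direction, 67 of 537 TTP-AA member sites (12.5%, 9.95 to 15.5) had a TTP site that close, against 21.6% for other genes. At 0 h, 15 of 28 TTP-AA member sites (53.6%, 35.8 to 70.5) had a TTP site within 15 nt, against 36.3% for other genes, and 6 of 23 TTP member sites (26.1%, 12.5 to 46.5) had a TTP-AA site, against 41.6%. All of these shared 0 h sites were in Rab14, the only member with sites in both 0 h lists, so they describe 1 gene.

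Sites found without LPS recurred in the TTP-AA 1 h list. All 6 members with a TTP site at 0 h had a TTP-AA site at 1 h, and 20 of their 23 TTP 0 h sites (87.0%, 67.9 to 95.5) had a TTP-AA 1 h site within 15 nt, against 83.5% for other genes. Of the 28 TTP-AA 0 h member sites, 26 (92.9%, 77.4 to 98.0) had a TTP-AA 1 h site that close, against 81.4% for other genes, and 21 of the 28 were in Rab14. In contrast, 3 of the 23 TTP 0 h sites (13.0%, 4.54 to 32.1) had a TTP 1 h site within 15 nt, against 45.5% for other genes, and 2 of the 6 genes, Rab21 and Rab4b, had any TTP 1 h site. Between 0 h and 1 h, the overlap of whole genes was not computed over all genes. The counts of 6 of 6 and 2 of 6 genes therefore cannot be read as particular to the members.

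Genes of the Rab machinery, a list of 62 exchange factors, GTPase-activating proteins, dissociation inhibitors, prenylation factors and effectors, were compared. A 3′UTR site was found in 4 of the 62 at 0 h for TTP and 1 for TTP-AA, in 8 and 30 (48.4%) at 1 h, and in 0 at 4 h in both lists, where 3.51%, 4.25%, 6.16% and 21.2% of all genes had one at 0 h and 1 h. They held 16 and 2 cDNAs at 0 h and 26 and 345 at 1 h. Of the 62 genes, 17 had enough cDNAs for the exact test at 1 h and 0 passed it, where 1.99% and 4.41% of all tested genes were called for TTP-AA and for TTP, with 2 at an unadjusted p under 0.05 in that exact test. With 0 TTP cDNAs, the smallest TTP-AA count called among all tested genes was 66, and no machinery gene had more than 41. The test therefore could not call TTP-AA for the machinery genes with 0 TTP cDNAs. The largest numbers were in Tbc1d15, a GTPase-activating protein for Rab7, with 0 TTP and 41 TTP-AA cDNAs, in Rin2, an exchange factor for Rab5, with 6 and 37, and in Dennd5a, a DENN-domain exchange factor, with 0 and 30.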

How the data were processed

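iCLIP was performed on 15 samples in 6 groups, and the authors deposited 1 list of crosslink sites per group, in which the value of a site is a score, namely the number of unique cDNAs, with the strand as its sign. By the study's methods, reads were sorted by barcode, PCR duplicates were removed by random barcode bases and unique reads were mapped with Bowtie to GRCm38 (mm10, Ensembl 75). Libraries of a group were summed, and sites were kept below a false-discovery rate of 0.05 in iCount (100 permutations, 15 nt neighbourhood). The headers of 2 of the 6 lists, those at 1 h, carry the mark regionAsOne.

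Sites were assigned to GENCODE M21 on their own strand in the order 3′UTR, CDS, 5′UTR, non-coding exon, intron, in Python 3.11.15 (scipy 1.17.1, pandas 2.3.3, numpy 2.4.6, and matplotlib 3.10.9 for plots). A stretch was a run of 1 h sites less than 16 nt apart. Shares have Wilson and ratios exact binomial 95% intervals, and the limit for a count of 0 was 3 counts. That limit does not cover cDNAs at sites removed by the false-discovery threshold. Intervals over sites treat neighbouring sites of a stretch as independent, which makes them too narrow. Lists held between 19167 and 174397 cDNAs. The Fisher test was tested on simulated data. PCR duplicates beyond the random bases could still raise counts.

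The members and lists were chosen with earlier results of these data known, and Rab5if joined the non-GTPases after the annotated names were read. Named were the 10 members with most 1 h cDNAs, those past the test, those with 4 h 3′UTR cDNAs, the 5 with most in each 0 h list and in the TTP 1 h list, the 3 with most in each other region, the 5 densest and the 3 longest without cDNAs. Every other gene was named to complete its group, after its values were seen.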

Additional observations from a re-analysis of the deposited data

Results flagged for a closer look

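Sites on the strand opposite to a Rab or Arl gene were not counted for any member above. They exceeded the limit of 3 counts at Rab40c, with 4 cDNAs in the TTP 1 h list and 5 in the TTP-AA 1 h list, and at Arl14epl, with 4 cDNAs in the TTP 4 h list. On their own strand, those at Rab40c were assigned to an intron of another annotated gene and those at Arl14epl to no gene. There were no control libraries to compare them with.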

How the results depend on the processing

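No paired analysis was possible because each list is a sum over its libraries, and for the same reason no library could be left out. Of the 82 values recomputed for summary results, 48 kept within their interval or within 1.5 times their count. These 48 include all settings for members with a 3′UTR site at 4 h, where the count of 0 could not change. With sites of at least 2 cDNAs, members with a 3′UTR site became 2, 2 and 3 in the TTP 0 h, TTP-AA 0 h and TTP 1 h lists, and with at least 5 cDNAs per gene they became 2, 1 and 5. The member share of 3′UTR cDNAs became 0.366% (TTP 0 h), 0.350% (TTP 1 h) and 0.424% (TTP-AA 1 h) with sites of at least 2 cDNAs, and 0.878% (TTP-AA 1 h) with each site counted once. As a share of all cDNAs without the ribosomal RNA locus it was 0.0908%, 0.114%, 0.0748% and 0.417% in the TTP 0 h, TTP-AA 0 h, TTP 1 h and TTP-AA 1 h lists, by the wider denominator. The ratio of shares of all cDNAs at 1 h was 6.99. The exact test called 14 members in favour of TTP-AA and 0 in favour of TTP with all cDNAs as the reference, 0 in favour of TTP with at least 20 cDNAs (Rab5if is then not tested) and 0 in either direction with each site counted once, where 5 had an unadjusted p under 0.05. Under the first of these, Rab1b, Rab7, Rab4b and Rab31 reversed direction, with adjusted p-values of 0.0126, 0.0156, 0.00537 and 0.383 in the exact test.

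AUUUA within 50 nt was near 56.5%, 50% and 43.6% of member sites in the TTP 0 h, TTP-AA 0 h and TTP-AA 1 h lists (other genes 57.9%, 47.3% and 51.2%), UAUUUAU within 20 nt near 13.0%, 0%, 11.6% and 11.7% (TTP 0 h, TTP-AA 0 h, TTP 1 h, TTP-AA 1 h), and weighting by cDNAs gave 30.9% for TTP-AA 1 h. Leaving out Rab14, chosen after seeing the data, gave 29.9%. At the same nucleotide, 8.70% of TTP and 7.14% of TTP-AA member sites were shared at 0 h and 25.6% and 2.05% at 1 h, and within 50 nt 75% of TTP-AA sites at 0 h and 16.9% at 1 h. Most member sites rest on single cDNAs, which limits the counts of genes at 0 h and for TTP at 1 h.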
